A study of Mus musculus with 3 samples.

Results

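A group of 9 genes of water and solute handling was followed along the mouse nephron: the water channels *Aqp1*, *Aqp2*, *Aqp3*, *Aqp4* and *Aqp6*, the vasopressin receptor *Avpr2*, the urea transporter *Slc14a2*, the salt cotransporter *Slc12a1*, and *Umod*, which encodes uromodulin. They were chosen by symbol, each matched a single gene identifier, and they make up 9 of the 32285 genes counted. Cells of whole kidneys from male mice aged 28 weeks were sequenced in droplets, a method that counts RNA molecules by unique molecular identifiers (UMIs). The db/m control library came from db/m mice, which carry a working leptin receptor gene beside the mutant copy, fed a fructose-free diet. The db/db control library came from db/db mice, which lack a working long leptin receptor and become obese and diabetic, on the same diet. The db/db fructose library came from db/db mice on a diet with 60% fructose. All diets started at an age of 8 weeks and ran for 20 weeks. There was 1 library in each group, made from a number of mice that the labels used here do not give, so no difference has a replicate check and none was tested. Intervals are 95% and cover counting error only.

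As background, the kidney concentrates urine by building a salty medulla and then letting water leave the collecting duct. The thick ascending limb pumps salt out through the cotransporter NKCC2, the product of *Slc12a1*, without letting water follow. Vasopressin binds the receptor encoded by *Avpr2* on principal cells, raises cAMP and brings aquaporin-2 to the apical membrane, and aquaporins 3 and 4 let the water out on the basolateral side. Aquaporin-1 carries water across the proximal tubule and descending thin limb, and the urea transporters made from *Slc14a2* return urea to the medulla.

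After filtering, 9940 db/m control, 16227 db/db control and 16049 db/db fructose cells remained, with median depths of 1679, 1628 and 1531 UMIs. The median mitochondrial share of UMIs was 15.1%, 24.6% and 10.6%. Pairs of libraries shared between 379 and 780 barcodes. Cells were clustered without the 9 genes and named by marker genes that exclude them. High marker levels gave the names, so the levels of defining markers are no separate check of them. *Fxyd4* stood between 3838 and 4268 UMIs per 1000000 UMIs (CPM) in principal-like cells and between 20.3 and 47.0 CPM in immune-like cells. *Cryab* stood between 8757 and 10317 CPM in thin limb-like cells. The level of the 9 transcripts in immune-like cells was taken as a rough guide to free RNA. Doublets or own expression may enter that level, and their part was not tested. For example, 78 *Aqp3* UMIs of db/db fructose immune-like cells came from 21 of 448 cells.

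Each gene was given a home class from textbook knowledge, which for *Aqp1* was the proximal tubule, with the thin limb beside it. Here CPM means UMIs of the gene per 1000000 UMIs of that class of cells in that library. The highest class by the median of the 3 libraries was this home class for 8 of the 9 genes, and *Aqp1* was highest in thin limb-like cells, its other known site. The genes were chosen with earlier results of these data known, so this match is no separate check. Among the classes ranked, principal-like cells led for *Aqp2*, *Aqp3*, *Aqp4* and *Avpr2*, with connecting tubule-like cells next and no overlap between their ranges. The ranking left out podocyte-like, pericyte-like, erythroid-like and unnamed cells, and cells with markers of both the connecting tubule and principal cells. These mixed-marker cells lay above connecting tubule-like cells by median for each of these genes. Their range over the libraries overlapped that of principal-like cells for *Aqp3* (694 to 2548 CPM) and *Avpr2* (131 to 520 CPM). Their *Aqp2* and *Aqp4* ranges did not overlap it. For *Aqp2* the connecting tubule range was 2872 to 3379 CPM, against 11946 to 20270 CPM in principal-like cells. *Slc12a1* was highest in the thick ascending limb and next in macula densa-like cells, where it ranged from 3204 to 4866 CPM. Type A intercalated-like cells led for *Aqp6*, with 11.3 to 25.5 CPM in type B cells, the next class.

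**Figure D1:**
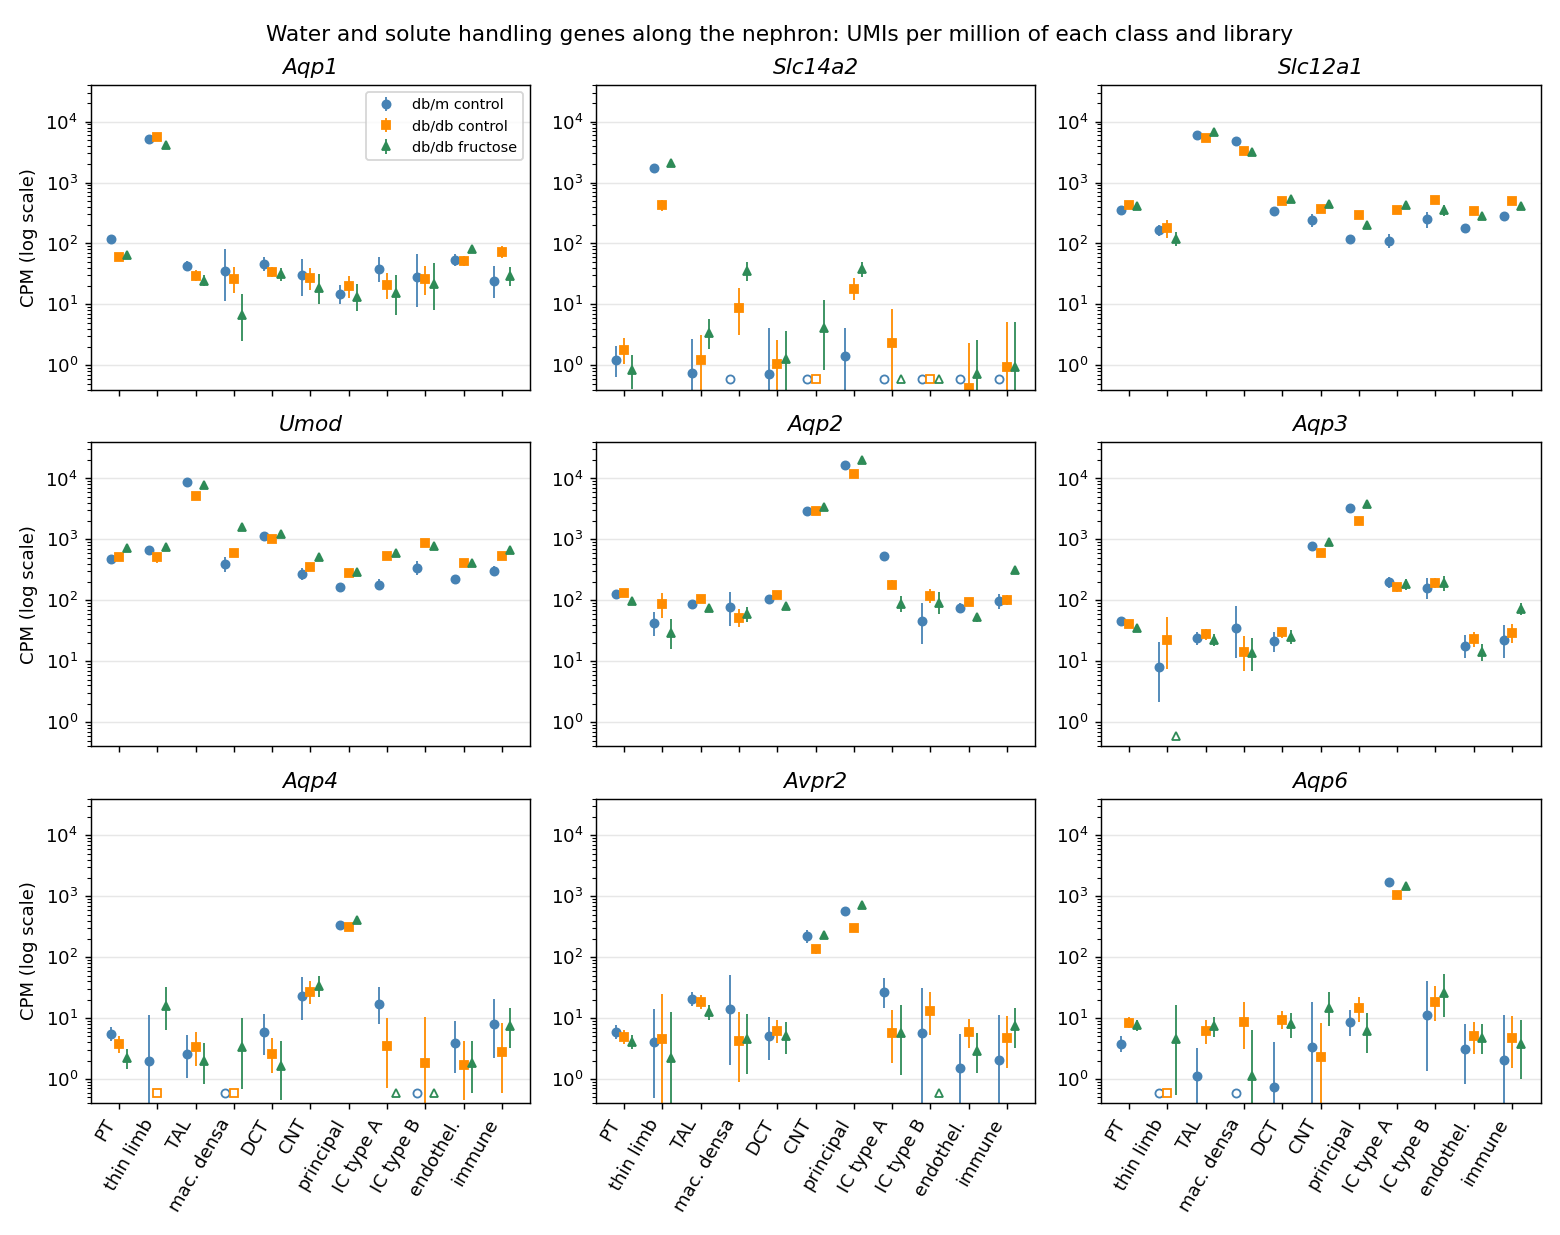
Levels of the 9 genes in 11 classes of cells (x axis; PT, proximal tubule; TAL, thick ascending limb; DCT, distal convoluted tubule; CNT, connecting tubule; IC, intercalated) as CPM on a log axis, 1 point per library with its 95% Poisson interval, and open symbols at the bottom for a count of 0. *Aqp2* in principal-like cells lies between 11946 and 20270 CPM, and *Aqp1* in thin limb-like cells between 4108 and 5634 CPM.

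Principal-like cells, the vasopressin-responsive cells of the collecting duct, carried *Aqp2* in nearly every cell. With each cell thinned to 1000 UMIs, *Aqp2* was found in 89.9% of db/m control, 90.7% of db/db control and 92.9% of db/db fructose principal-like cells. The same share in immune-like cells was 10.5%, 7.9% and 6.6%. *Aqp2* lies on chromosome 15 (GRCm38 positions 99579055 to 99584547, plus strand), *Aqp3* on chromosome 4 (41092722 to 41098183, minus strand) and *Avpr2* on chromosome X (73892102 to 73895502, plus strand).

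The 250 bases before the RefSeq start are shown for *Aqp2*, *Aqp3* and *Avpr2*. Of the genes with principal-like cells as home class, these 3 were at least 1.5-fold higher there in db/db fructose than in db/db control. So were 22.2% of all genes in these cells, and *Slc14a2*, from 48 and 24 UMIs. The sequences are from RefSeq on GRCm38.p6, whose promoter table held 7 of the 9 genes. Capitals mark matches, on either strand, to the cAMP response element core TGACG, to the GATA motif AGATAA and to the TATA box TATAAA. The full cAMP response element TGACGTCA was also searched and contains the core.
Aqp2, chr15:99578806-99579055, plus strand: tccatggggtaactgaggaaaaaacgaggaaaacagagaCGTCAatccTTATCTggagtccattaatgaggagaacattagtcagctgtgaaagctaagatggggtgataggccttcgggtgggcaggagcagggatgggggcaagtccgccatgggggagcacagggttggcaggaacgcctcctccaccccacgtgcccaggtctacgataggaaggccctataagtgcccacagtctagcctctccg
Aqp3, chr4:41098184-41098433, minus strand: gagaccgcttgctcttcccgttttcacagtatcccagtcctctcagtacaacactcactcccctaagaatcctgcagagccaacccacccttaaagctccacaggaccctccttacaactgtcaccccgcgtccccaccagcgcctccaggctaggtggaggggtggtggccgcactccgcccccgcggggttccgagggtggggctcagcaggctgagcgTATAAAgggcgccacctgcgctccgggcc
Avpr2, chrX:73891852-73892101, plus strand: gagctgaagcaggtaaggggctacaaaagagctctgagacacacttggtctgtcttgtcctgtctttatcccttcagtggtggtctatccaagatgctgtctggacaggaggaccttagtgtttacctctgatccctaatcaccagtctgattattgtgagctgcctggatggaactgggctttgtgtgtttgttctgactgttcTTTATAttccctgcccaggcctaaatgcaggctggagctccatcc
The *Aqp2* window held the core and the GATA motif, both on the reverse strand. *Aqp3* held the TATA box on its own strand and *Avpr2* held it on the reverse strand. Of 32851 windows of the same length, 17.8% held the core, 9.99% the GATA motif, 12.4% the TATA box and 1.55% the full element. A match describes letters only.

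*Aqp2* in principal-like cells stood at 16438 CPM in the db/m control library, 11946 CPM in the db/db control library and 20270 CPM in the db/db fructose library. The db/db fructose library was the highest and the db/db control library the lowest. The fructose level was 1.70-fold the db/db control level, a log2 ratio of 0.76 with an interval of 0.73 to 0.79. *Aqp3*, the basolateral channel that also passes glycerol, stood at 3231, 2035 and 3792 CPM in the same order. *Avpr2* stood at 580 CPM (548 to 614), 297 CPM (268 to 327) and 713 CPM (667 to 761). The db/db control library was lowest for each of these 3 genes. For *Avpr2* its interval met neither of the others, and the fructose level was 2.40-fold that of db/db control, a log2 ratio of 1.27 with an interval of 1.09 to 1.44. *Aqp4* (chromosome 18, 15389496 to 15410982, minus strand) differed less, at 332, 311 and 410 CPM, and its db/db control interval of 282 to 343 CPM overlapped that of db/m control.

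The principal-like cells came from 3 clusters, and the libraries mixed them differently. Clusters 6-0 and 6-1 held UMI-rich cells, with median depths of 4152 to 5225 and 5220 to 9388 UMIs, and cluster 7-0 held shallow cells with medians of 1413 to 1727 UMIs. In the db/m control library they held 218, 51 and 245 cells, while db/db control had 137, 46 and 245 of them and db/db fructose had 80, 73 and 198. Cluster 6-1 had the highest *Aqp2*, at 28937, 21608 and 29290 CPM in db/m control, db/db control and db/db fructose. Cluster 7-0 had 3432, 4005 and 4350 CPM. Inside the clusters, the log2 ratio of *Aqp2* in db/db fructose over db/db control was 0.51 in 6-0, 0.44 in 6-1 and 0.12 in 7-0. None of these reached 1.5-fold, so the 1.70-fold difference of the pooled cells was not found within any single cluster.

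*Avpr2* kept a difference of more than 1.5-fold in all 3 clusters. Its log2 ratio of db/db control over db/m control was -0.76 in 6-0, -0.91 in 6-1 and -0.63 in 7-0. For db/db fructose over db/db control it was 1.07, 0.91 and 0.60. In cluster 7-0 *Avpr2* rested on 76, 54 and 57 UMIs in db/m control, db/db control and db/db fructose. The db/db control interval there, 90.4 to 157 CPM, overlapped those of db/m control (147 to 233 CPM) and db/db fructose (138 to 236 CPM). *Aqp3* was lower in db/db control than in db/m control in each cluster, by log2 ratios of -0.44, -0.50 and -0.54, short of 1.5-fold. Over db/db control, the fructose ratio of *Aqp3* was 0.76 in 6-0, 0.52 in 6-1 and 0.27 in 7-0. *Aqp4* went in different directions between clusters, at 0.63 in 6-0 and -0.47 in 6-1 for the same comparison. The median mitochondrial share in principal-like cells was 16.2%, 24.6% and 14.0% in the 3 libraries, and the 12 thick ascending limb markers summed to 1126, 1534 and 1671 CPM there. Their part in these differences was not tested. A further 101, 93 and 156 cells with markers of both the connecting tubule and principal cells could not be split, and held 2294, 760 and 7965 UMIs of *Aqp2* at 5744, 3687 and 9302 CPM.

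**Figure D2:**
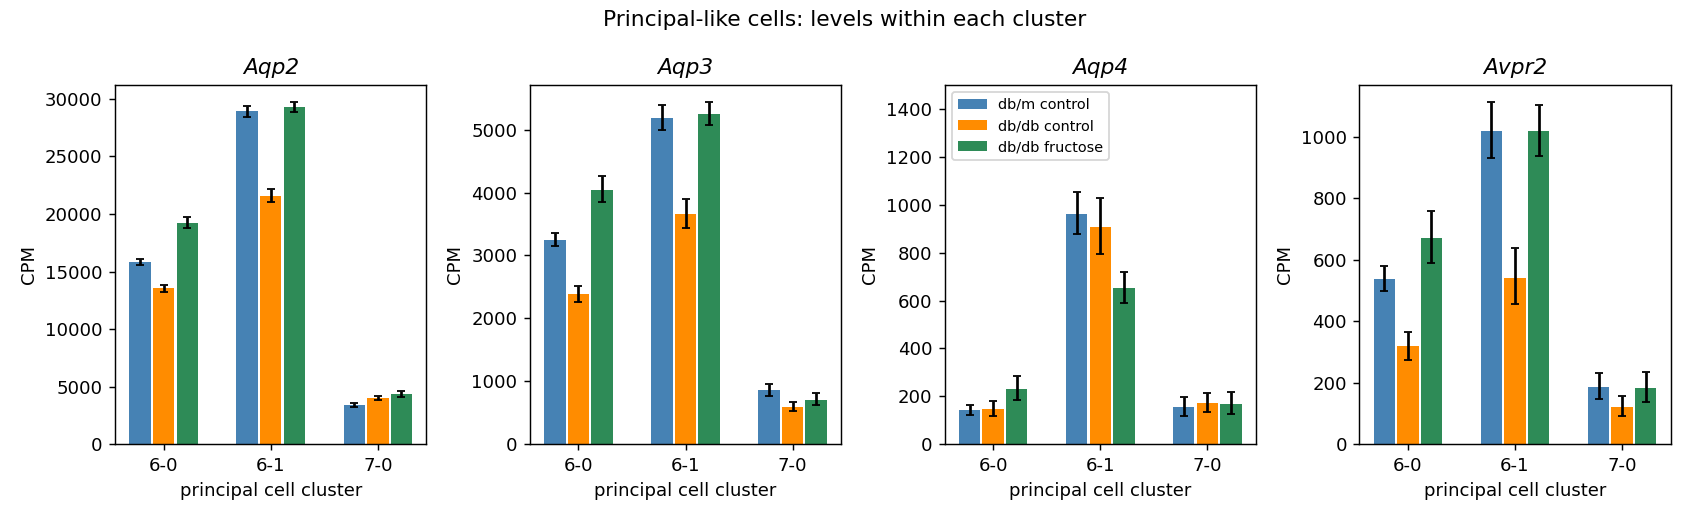
*Aqp2*, *Aqp3*, *Aqp4* and *Avpr2* in the 3 principal-like clusters, as CPM with 95% Poisson intervals, 1 bar per library. *Avpr2* is lowest in the db/db control library in each cluster, at 318, 542 and 120 CPM, with overlapping intervals in cluster 7-0. *Aqp2* in cluster 7-0 is lowest in db/m control at 3432 CPM.

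*Aqp3* was found mostly in cells with *Aqp2*. Among thinned principal-like cells with *Aqp2*, 73.5% of db/m control, 62.5% of db/db control and 68.3% of db/db fructose cells also had *Aqp3*. Among those without *Aqp2*, 16.3%, 10.3% and 26.1% had it. *Avpr2* was found in 32.3%, 22.3% and 31.7% of *Aqp2*-positive cells and in 12.2%, 2.56% and 8.70% of the 49, 39 and 23 negative cells. *Aqp4* was found in 17.3%, 16.8% and 20.7% of the positive and 6.12%, 10.3% and 0% of the negative cells, the last being 0 of 23 cells, which allows a share of up to 13.04%. *Aqp4* was concentrated in cluster 6-1, at 962, 906 and 652 CPM, against 141, 148 and 229 CPM in 6-0. Cluster 6-1 also held most of the *Slc14a2* UMIs of principal-like cells in the db/db libraries, 15 of 24 and 35 of 48, while the db/m control library had 3 in all.

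Connecting tubule-like cells, the segment before the collecting duct, showed lower levels. *Aqp2* there stood at 2872, 2875 and 3379 CPM, and *Aqp3* at 785, 601 and 916 CPM. *Avpr2* stood at 222, 135 and 229 CPM, again lowest in db/db control. Outside these cells, *Aqp3* was found in both intercalated classes, the acid-base cells of the collecting duct, at 159 to 197 CPM in the 6 values. *Aqp3* in immune-like cells was 22.3, 29.1 and 71.9 CPM. *Avpr2* in the thick ascending limb, where vasopressin also acts, was 20.7, 18.5 and 12.4 CPM, against 2.0 to 7.4 CPM in immune-like cells.

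*Aqp6* encodes an intracellular channel of acid-secreting intercalated cells that passes anions. The gene lies 16852 bases from *Aqp2* on chromosome 15 (99601400 to 99605477, plus strand). In type A intercalated-like cells it stood at 1742 CPM (1631 to 1859) in db/m control, 1055 CPM (988 to 1126) in db/db control and 1461 CPM (1360 to 1568) in db/db fructose. The 3 intervals did not overlap, and db/db control was the lowest. Thinned type A cells held *Aqp6* in 55.2%, 34.7% and 57.1%, also lowest in db/db control, while the other libraries stood in the opposite order to the CPM with overlapping intervals. Type A cells held 92.4%, 76.8% and 75.6% of all *Aqp6* UMIs. Median depth there was 2943, 1824 and 1431 UMIs. The 8 intercalated cell markers summed to 10239, 8636 and 7741 CPM there, lowest in db/db fructose. The part of depth and of these markers was not tested.

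*Aqp1* (chromosome 6, 55336432 to 55348555, plus strand) had its highest level in thin limb-like cells, with 5252, 5634 and 4108 CPM in db/m control, db/db control and db/db fructose. These came from 78, 45 and 84 cells. Thinned thin limb-like cells held *Aqp1* in 67.1%, 68.9% and 48.7%. In proximal tubule-like cells the level was 117, 59.2 and 65.0 CPM, so that the db/m control library was highest and the db/db libraries lay near each other. In immune-like cells *Aqp1* stood at 24.4, 73.2 and 29.5 CPM. The db/db control proximal level is below that of its immune-like cells, and above the highest level of *Aqp1* in distal convoluted tubule-like (46.6 CPM), thick ascending limb (42.5 CPM) and principal-like cells (19.7 CPM) of any library. Different clusters hold most proximal tubule-like cells in the libraries: clusters 0 and 1 held 1661 and 1850 cells of db/m control, 37 and 4 of db/db control, and 91 and 70 of db/db fructose. In cluster 0 *Aqp1* stood at 151 CPM in db/m control. It was 147 CPM in db/db control, from 11 UMIs, and 25.4 CPM in db/db fructose, from 5 UMIs. In clusters 17 and 19, which hold most db/db control cells, db/m control had 64.0 and 107 CPM, from 13 and 7 UMIs. The db/db control library had 48.1 and 73.3 CPM there, with overlapping intervals in both clusters. Proximal cells with more early than late marker UMIs had 91.6, 55.3 and 51.2 CPM in db/m control, db/db control and db/db fructose. Those with more late marker UMIs had 136, 81.9 and 98.3 CPM. In both kinds the db/m control interval met neither of the others. Cells with equal numbers had 127, 71.2 and 104 CPM, where the db/m control interval overlapped that of db/db fructose. In endothelium-like cells *Aqp1* was 53.9, 51.5 and 79.7 CPM, and its range overlapped that of the proximal tubule.

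*Slc14a2* (chromosome 18, 78146148 to 78596942, minus strand) makes the UT-A urea transporters. In thin limb-like cells it stood at 1732 CPM in db/m control, 424 CPM in db/db control and 2071 CPM in db/db fructose, from 871, 94 and 918 UMIs. The db/db control library was the lowest, 4.08-fold below db/m control. The median mitochondrial share of thin limb-like cells was 8.18%, 17.7% and 7.55%, and 8 connecting tubule markers summed to 173, 930 and 539 CPM there. The 12 principal cell markers summed to 2007, 1535 and 1430 CPM there, against 206, 262 and 254 CPM in the thick ascending limb. The 11 thin limb markers summed to 14309, 13759 and 16155 CPM in thin limb-like cells. The part of these values was not tested. These UMIs came from few cells: 14 of 78, 5 of 45 and 28 of 84 had any. The richest cell held 213, 45 and 132 UMIs, which is 24.5%, 47.9% and 14.4% of the total. Without that cell the level was 1348, 226 and 1800 CPM. Without doublet removal the log2 ratio of db/db control over db/m control was -1.12 in place of -2.03. Most of the positive cells lacked *Aqp1*: after thinning, *Slc14a2* was found with no *Aqp1* in 8 of 11, 3 of 3 and 17 of 23 positive cells.

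The thick ascending limb holds *Slc12a1* (chromosome 2, 125152505 to 125230002, plus strand) and *Umod* (chromosome 7, 119462711 to 119479282, minus strand). Uromodulin is the most abundant protein of normal urine. *Slc12a1* stood at 5960, 5475 and 6678 CPM in db/m control, db/db control and db/db fructose, a narrow range. *Umod* stood at 8871, 5213 and 7934 CPM, lowest in db/db control, where the log2 ratio over db/m control was -0.77 with an interval of -0.80 to -0.74. Thinned cells held *Umod* in 92.3%, 82.1% and 88.1%, and *Slc12a1* in 98.0%, 96.4% and 98.2%. The guide to free RNA was high for both genes: immune-like cells had 307, 537 and 677 CPM of *Umod* and 280, 502 and 415 CPM of *Slc12a1*.

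The limb split into a UMI-rich cluster 9 and a shallow cluster 10, with median depths of 1935 to 2821 and 1360 to 1550 UMIs. *Umod* was higher in cluster 9, at 10993, 7399 and 12483 CPM, than in cluster 10, at 4401, 2563 and 3764 CPM. *Slc12a1* went the other way, at 5493, 4805 and 5759 CPM in cluster 9 and 6945, 6286 and 7520 CPM in cluster 10. Within the clusters the log2 ratio of *Umod* in db/db control over db/m control was -0.57 and -0.78, and in db/db fructose over db/db control it was 0.75 and 0.55. Cluster 10 held 570, 892 and 1355 cells and cluster 9 held 604, 774 and 777. Cells with UMIs of the claudin gene *Cldn10* and none of *Cldn16* had 10176, 6561 and 10562 CPM of *Umod*. Those with *Cldn16* alone, the claudin of calcium and magnesium uptake, had 8581, 5127 and 7328 CPM. In both kinds the db/db control library was lowest.

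Macula densa-like cells, the sensors of tubular salt, expressed *Slc12a1* at 4866, 3285 and 3204 CPM and much less *Umod*, at 390, 603 and 1602 CPM. The *Umod* values of db/m control and db/db control were close to those of immune-like cells, and that of db/db fructose was above it. Cells of the limb or macula densa with a UMI of *Nos1*, the macula densa nitric oxide synthase, had 602, 448 and 1055 CPM of *Umod*. The db/db control level of these cells was below the 537 CPM of its immune-like cells, and its interval overlapped that of db/m control. In macula densa-like cells the order differed, with db/m control lowest. In distal convoluted tubule-like cells *Umod* stood at 1144, 1027 and 1245 CPM, above the immune-like level in each library.

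**Figure D3:**
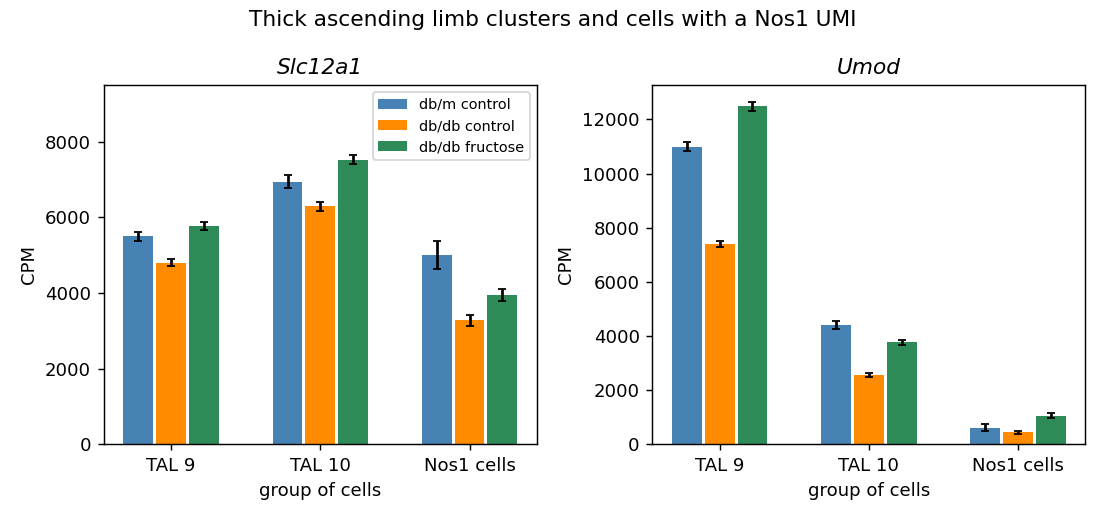
*Slc12a1* and *Umod* in thick ascending limb (TAL) clusters 9 and 10 and in cells with a *Nos1* UMI, as CPM with 95% Poisson intervals, 1 bar per library. *Umod* is lowest in the db/db control library in all 3 groups of cells, at 7399, 2563 and 448 CPM. In cells with a *Nos1* UMI its interval of 395 to 505 CPM overlaps that of db/m control, 478 to 749 CPM.

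Counted over home classes, with a difference of at least 1.5-fold as the mark, db/db control lay below db/m control for 6 of the 9 genes and above for none. The 6 were *Aqp1*, *Aqp3*, *Aqp6*, *Avpr2*, *Slc14a2* and *Umod*. *Aqp1* is counted here in the proximal tubule, where the libraries fill different clusters, and in thin limb-like cells, its highest class, the log2 ratio was 0.10. Of all genes with at least 10 CPM in those classes, 12.1% were lower by this mark in proximal tubule, 12.4% in principal, 14.9% in type A intercalated, 26.7% in thin limb and 4.99% in thick ascending limb. The shares that were higher were 7.45%, 7.49%, 14.3%, 14.1% and 7.28% in the same order of classes. The shares given here and below include genes near 10 CPM, which rest on few UMIs in small classes. The thin limb of db/db control had 221531 UMIs in all. Each of the 9 genes had 94 UMIs or more in its home class, so the shares are not like for like. The median log2 ratio of the 9 genes was -0.72. The median over all genes of these classes lay between -0.19 and 0.04.

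Comparing db/db fructose with db/db control, 5 of the 9 were higher by at least 1.5-fold and none lower: *Aqp2*, *Aqp3*, *Avpr2*, *Slc14a2* and *Umod*. Of all genes, 22.2% were higher in principal, 22.2% in thin limb, 11.3% in thick ascending limb, 11.2% in proximal tubule and 32.8% in type A intercalated. The shares that were lower were 4.34%, 17.7%, 1.52%, 1.48% and 10.1% in the same order. The median log2 ratio of the 9 was 0.61, but the median of all genes of their classes was itself 0.14 to 0.30 above 0. Scaled by median-of-ratios size factors, which remove that shift, *Aqp2* stood at 0.51, *Aqp3* at 0.65, *Avpr2* at 1.02, *Slc14a2* at 2.15 and *Umod* at 0.39, so that *Aqp2* and *Umod* no longer reached 1.5-fold. The 2 comparisons above share the db/db control library. Against db/m control, db/db fructose had 1 gene lower, *Aqp1*, and none higher, where 6.76% of all proximal tubule genes were lower. In the other home classes the share lower was 5.42% in principal, 16.6% in type A intercalated, 18.9% in thin limb and 2.86% in thick ascending limb, and the share higher was 16.2%, 35.9%, 13.5% and 21.1% there and 21.5% in proximal tubule. Relative to db/m control the median log2 ratio of the 9 was 0.23.

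**Figure D4:**
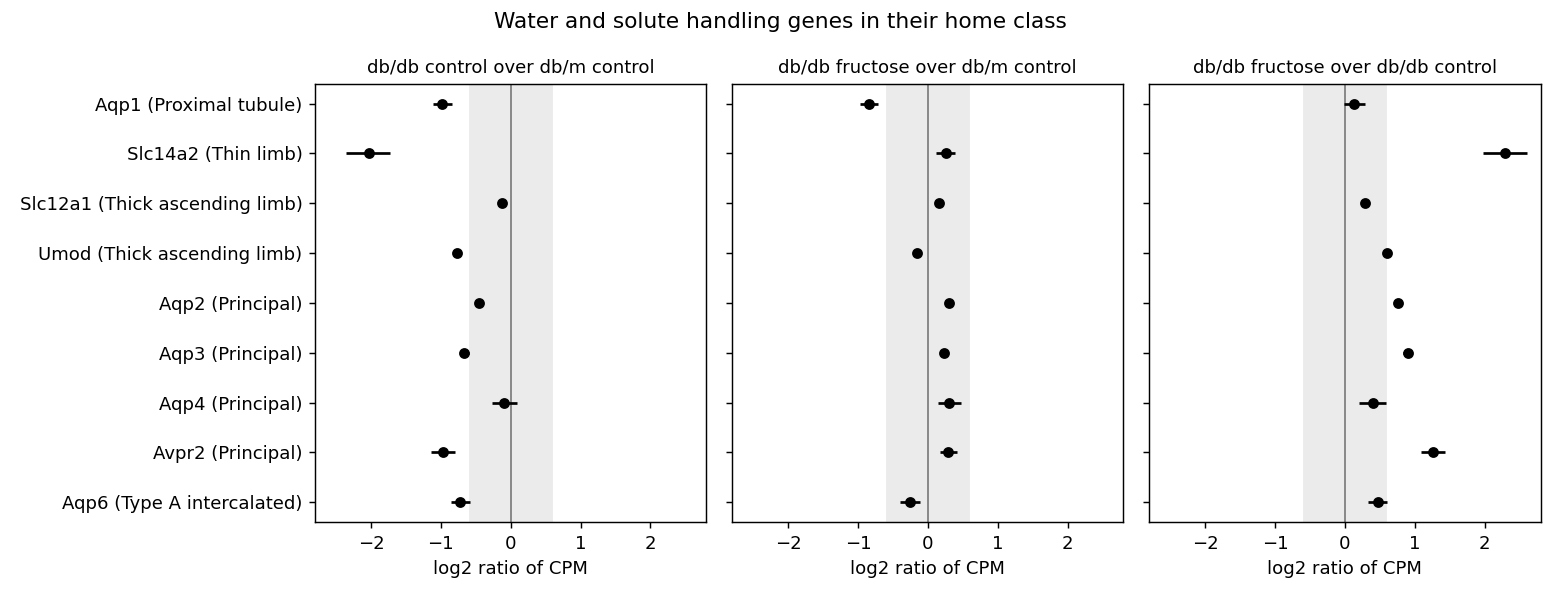
Log2 ratio of CPM of each gene in its home class (y axis) with its 95% interval for counting error, in the 3 comparisons, with the grey band marking less than 1.5-fold. *Avpr2* lies at -0.97 for db/db control over db/m control and at 1.27 for db/db fructose over db/db control.

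Few genes around the vasopressin receptor passed the 1.5-fold mark. Of 36 genes of vasopressin signalling and *Aqp2* regulation, 32 were measured in principal-like cells for db/db control over db/m control, and 2 were higher by 1.5-fold and 1 lower. Of all principal genes 19.9% passed that mark in either direction. *Gnas*, the stimulatory G protein subunit, stood at 672, 628 and 769 CPM. *Pde4d*, which breaks down cAMP, stood at 32.7, 72.0 and 59.3 CPM, lowest in db/m control. *Hspa8*, a chaperone involved in aquaporin-2 trafficking, stood at 993, 527 and 564 CPM, highest in db/m control. *Elf5*, a principal cell transcription factor, stood at 58.3, 53.1 and 96.8 CPM. For db/db fructose over db/db control, 2 of 32 were higher, *Elf5* and *Stx3*, and none lower, against 26.5% of all genes in either direction.

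Local modulators were sparse, with 6 to 8 of 15 measured in principal-like cells over the comparisons. For db/db fructose over db/db control, 3 of 7 were higher there and none lower, against 22.2% of all genes higher: *Ptger1*, *Ptger4* and *P2ry2*. *Ptger1*, a prostaglandin E2 receptor, stood at 193, 150 and 234 CPM, and *Ptger4*, another receptor for it, at 12.5 CPM in db/db fructose from 16 UMIs and 4.55 CPM in db/db control from 6. In the thick ascending limb *Ptger3*, the receptor that restrains salt transport, stood at 211, 174 and 228 CPM, and *Casr*, the calcium-sensing receptor, at 134, 109 and 109 CPM. Neither *Ptger3* nor *Casr* passed 1.5-fold there in any comparison, while the sparse *Bdkrb2* and *Ptgs1* passed it in some.

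Of 23 genes of salt transport in the thick ascending limb, 2 were higher (*Wnk1* and *Cldn14*) and 2 lower (*Cldn19* and *Ppp1r1a*) in db/db control than in db/m control. Of all genes there, 12.3% passed in either direction. *Wnk1*, a kinase upstream of NKCC2, stood at 551, 893 and 1415 CPM, highest in db/db fructose. *Bsnd*, the chloride channel subunit barttin, stood at 107, 74.7 and 49.5 CPM, lowest in db/db fructose. *Ppp1r1a* stood at 1685 CPM in db/m control and 1109 CPM in db/db control. The share of UMIs from the nuclear RNAs *Malat1* and *Neat1* in this class was 4.36%, 4.95% and 7.21%, and its part was not tested.

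Some osmolyte and tonicity genes were at least 1.5-fold above db/m control in each of the db/db libraries. In principal-like cells 4 of 11 measured were higher in db/db control than in db/m control and none lower, against 7.49% of all genes higher. They were *Akr1b3*, the aldose reductase that makes sorbitol, *Slc5a3*, the myo-inositol carrier, *Pnpla6* and the kinase gene *Sgk1*. *Sgk1* stood at 117, 243 and 119 CPM, highest in db/db control, and *Akr1b3* at 91.9, 139 and 159 CPM. For db/db fructose over db/m control, 3 of 12 were higher in principal-like cells and none lower, against 16.2% of all genes higher. In thin limb-like cells 5 of 12 were higher and 1 lower in db/db control than in db/m control, against 14.1% and 26.7%. For db/db fructose it was 3 higher and 1 lower of 12, against 13.5% and 18.9%. In the thick ascending limb 3 of 11 were higher in db/db control than in db/m control, against 7.28% of all genes. In db/db fructose 6 of 11 were higher, against 21.1%, and none was lower in either. *Slc5a3* there stood at 1066, 963 and 1935 CPM, highest in db/db fructose.

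Genes with the most similar pattern over 39 class and library points, as Pearson correlations of log2(CPM + 10) among 7970 genes, came from the same cells. Nearest to *Aqp2* was *Hsd11b2* (r = 0.98), the enzyme that protects the mineralocorticoid receptor, which is also a naming marker. *Col26a1* was nearest to *Avpr2* (r = 0.97), *Scnn1b* to *Aqp3* (0.94), *Mcoln3* to *Aqp4* (0.94) and *Dmrt2* to *Aqp6* (0.96). *Upk3b* was nearest to *Slc14a2* (0.95), *Slc5a1* to *Slc12a1* (0.93) and *Egf* to *Umod* (0.88). The points share libraries and cell classes, and the values are a description.

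Other aquaporins were sparse. *Aqp11*, an intracellular channel, stood at 40.8, 30.6 and 44.2 CPM in proximal tubule-like cells, and *Aqp7*, a glycerol channel of the proximal tubule, at 6.5, 3.5 and 6.1 CPM. For *Mip*, no UMI was counted in any kept cell.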

How the data were processed

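The authors deposited UMI counts per gene and cell barcode, and per the submitters' processing notes Cell Ranger 6.0.0 and the mm10 build were used. Each deposited matrix holds raw counts and its features file gives the gene symbols, and the 3 libraries hold 13524, 26513 and 20383 barcodes with 31660184, 52704335 and 42028885 UMIs (db/m control, db/db control, db/db fructose). Barcodes under 200 genes or over 50% mitochondrial UMIs were dropped. The top Scrublet scores were then removed at a preset 0.8% per 1000 barcodes (1463, 5624 and 3324 barcodes), so doublets can remain. Cells were clustered with scanpy 1.11.5 (2000 variable genes without the 9 genes studied, 30 components, 15 neighbours, Leiden resolution 1), and connecting tubule and principal clusters were each clustered again at 0.5.

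Clusters were named by marker lists, with a score (mean log2 fold over the median cluster) of 1.2 or more, a margin of 0.5 to the next list and 3 or more markers. That rule was revised after clusters had been seen: a first version scored each cluster against all other cells, and 3 ways of splitting the connecting tubule and principal clusters were tried. Other naming could give other values.

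Counts were summed per class and library and divided by their total (CPM). Intervals are exact Poisson for CPM, exact conditional binomial for ratios and Clopper-Pearson for shares of cells, and a share of 0 is limited by 3 counts. In ratios a count of 0 was replaced by 3 UMIs. With 1 library per group nothing was tested. Genes entered a comparison from 10 CPM in one of its libraries, and 1.5-fold was the mark for higher or lower. The ratio calculation was tested on simulated data. Named are all 9 genes, the gene most correlated with each (for *Aqp1* it is not reported here), and from each of 5 pathway lists up to 4 genes with the largest ratios and at least 20 UMIs. *Gnas*, *Avpr1a* in cells with a *Nos1* UMI, the clusters within a class, *Slc12a1* and *Umod* in macula densa-like cells, *Aqp6* in type B cells and *Umod* in the distal convoluted tubule were added after values were seen. The genes and lists were chosen with earlier results of these data known. Alternatives were the mitochondrial and gene limits, doublets, totals, size factors, clustering, free RNA, fold and minimum level.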

Additional observations from a re-analysis of the deposited data

How the results depend on the processing

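No result changed sign past its 1.5-fold mark under any alternative run. Of the counts of genes, 74 values were near the reported ones and 6 moved. Of the log2 ratios of single genes in their home class, 220 values were near the reported ones and 125 moved. For db/db fructose over db/db control, 3 genes were higher with median-of-ratios size factors, 3 with the mean of cell shares and 2 at a fold of 2, in place of 5. For db/db fructose over db/m control, 1 was higher with the mean of cell shares and 0 were lower at a fold of 2. For db/db control over db/m control, 1 was lower at a fold of 2, in place of 6. *Avpr2* in principal-like cells passed the mark in use in both comparisons that involve db/db control under every setting run, except that it missed the fold of 2 against db/m control, where its log2 ratios ran between -1.19 and -0.63 over the settings. *Aqp3* in that comparison missed 1.5-fold at 30% mitochondrial UMIs (-0.57), with size factors (-0.55) and without mitochondrial UMIs in the total (-0.53), and *Aqp2* passed it at 500 genes per cell (-0.68). Subtracting the immune-like level took *Aqp1* in the proximal tubule to -8.37, since db/db control lay under that level. The cause of the other moves was not tested. The settings within single clusters, and the counts without *Slc14a2* (5 lower in db/db control, 4 higher in db/db fructose over db/db control), were chosen after seeing the data. No paired analysis was possible because each group has 1 library. Depth limits *Slc14a2* most, with 94 UMIs in the db/db control thin limb.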

Other observations

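Clusters that met no marker rule held part of the transcripts. In the db/db control library they held 3195 cells with a median mitochondrial share of 37.9%, against 314 cells and 15.2% in db/m control and 1378 cells and 15.3% in db/db fructose. They held 15.6% of the *Slc12a1* UMIs and 15.5% of the *Umod* UMIs of the db/db control library, and 1.58% and 1.72% of those of db/m control. *Slc12a1* stood in them at 258, 943 and 746 CPM in db/m control, db/db control and db/db fructose, and *Aqp2* at 62.7, 221 and 95.5 CPM. Macula densa-like cells of the db/db fructose library held 31 UMIs of *Slc14a2*, against 6 in db/db control and 0 in db/m control, where 0 of 143431 UMIs were counted. The 31 and 6 UMIs came from 4 of 193 and 2 of 186 cells, and the db/m control class had 53 cells. Cells with a *Nos1* UMI held the vasopressin receptor gene *Avpr1a*, itself a macula densa marker here, at 141, 109 and 35.1 CPM.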
